A study of Homo sapiens with 12 samples.

Results

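The enzymes that build purine and pyrimidine nucleotides from small precursors were followed in RPE-1 cells, 10 genes of the 43481 with a matched transcript in these libraries. They were chosen by symbol: PPAT, GART, PFAS, PAICS, ADSL, ATIC and IMPDH2 of purine synthesis, and CAD, UMPS and CTPS1 of pyrimidine synthesis. That choice, and the choice of the other gene lists, was made with earlier results of these data known. All 10 passed the filter on low counts. RPE-1 is an established human line of telomerase-immortalised cells from the retinal pigment epithelium. Each of 4 groups had 3 libraries of poly-A RNA. The starved group had spent 24 h in medium that lacked both fetal calf serum (FCS) and glucose. The other groups had been starved in the same way and were then returned for 4 h to RPMI medium with 10% FCS and 5 g/l glucose. With that medium the solvent group received DMSO, the DMA group 100 µM dimethyl amiloride, and the C646 group 10 µM C646. Dimethyl amiloride blocks Na+/H+ exchange across the membrane. C646 is an inhibitor of the acetyltransferases p300 and CBP. All refed groups share the starvation, and there was no group that was never starved. Nothing in the labels says whether the 3 libraries of a group came from separate cultures, so p-values measure only the spread between these samples.

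In de novo purine synthesis a ring is assembled step by step on an activated ribose phosphate, giving IMP, from which AMP and GMP are made. In de novo pyrimidine synthesis the ring is made first and is joined to ribose phosphate afterwards, giving UMP, and CTP is made from UTP. Proliferating cells use these pathways for RNA and DNA precursors. Control is exerted largely on enzyme activity, through feedback by nucleotides, growth factor and mTORC1 signalling to CAD, and assembly of enzymes into clusters and filaments. MYC is a known transcriptional activator of many of these genes. The data here are messenger RNA levels and hold no enzyme activity.

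A pair of the genes, PPAT and PAICS, stand back to back on chromosome 4 and share 1 short start region. It is shown because both genes are read outward from it. In GENCODE 29, PPAT lies at chr4:56393362-56435615 on the minus strand and PAICS at chr4:56435741-56464579 on the plus strand (GRCh38). The 125 bases between them, chr4:56435616-56435740, read on the plus strand as follows, with GC boxes (GGGCGG, the letters bound by SP-family factors) in capitals.
PPAT-PAICS gap: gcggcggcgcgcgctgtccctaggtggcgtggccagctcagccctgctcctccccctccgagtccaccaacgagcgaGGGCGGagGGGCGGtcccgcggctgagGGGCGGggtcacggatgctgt
The gap holds 3 GC boxes and 76% G and C. No E-box (CACGTG) or cyclic AMP response element (CRE, TGACGTCA) was found in these letters on either strand. The 250 bases before each RefSeq start (GRCh38.p14) were searched for 8 of the 10 genes, all but ADSL and IMPDH2, and the bases after the starts were not. They hold an E-box, the letters bound by MYC with MAX, near PPAT and ATIC, and a CRE, bound by the CREB and ATF families, near UMPS. Each is shown 5′ to 3′ on its gene's strand, with the motif in capitals.
PPAT E-box, chr4:56435780-56435809: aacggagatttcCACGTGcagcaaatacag
ATIC E-box, chr2:215312001-215312030: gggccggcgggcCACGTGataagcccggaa
UMPS CRE, chr3:124730394-124730423: gacttcgcgggTGACGTCAtcggggcgccg
The motifs begin 182, 46 and 47 bases before the RefSeq starts of PPAT, ATIC and UMPS. By GENCODE 29 the first lies in an exon of PAICS, beyond the start of that gene, and the others lie in exons of their own genes. Of 35116 such windows of 250 bases of all genes, searched on both strands, 42.6% hold a GC box, 6.34% an E-box and 1.65% a CRE. A match describes the letters only.

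The libraries held 14910516 to 28968510 expected counts. Levels of single genes are given in CPM (counts per 1000000 of the TMM-scaled library), and 3 counts, the limit set by a count of 0, correspond to 0.105 to 0.203 CPM. That limit covers counting error only. Of the markers of mature pigment epithelium, RPE65, RLBP1, TYR and TYRP1 were at or near 0, with at most 0.293 CPM in any library. BEST1 (0.625 to 3.92 CPM) and PMEL (0.402 to 0.823 CPM) were low but above the limit of 3 counts. Of the epithelial markers CDH1 and EPCAM were at most 0.251 CPM. MITF (17.4 to 55.4 CPM), OTX2, KRT8, KRT18 and the mesenchymal VIM and FN1 were expressed. In bulk RNA, fewer cells of a type and less RNA per cell cannot be told apart. Solvent library 1 stood above the other solvent libraries in 9 of the 10 enzymes, all but IMPDH2. The same held for 35.6% of the 15263 genes tested. In that library 12 S phase genes summed to 1025 CPM, against 509.9 and 604 CPM in solvent libraries 2 and 3, 505 to 591 CPM in starved, 426 to 458 CPM in DMA and 373 to 428 CPM in C646 libraries.

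**Figure D1:**
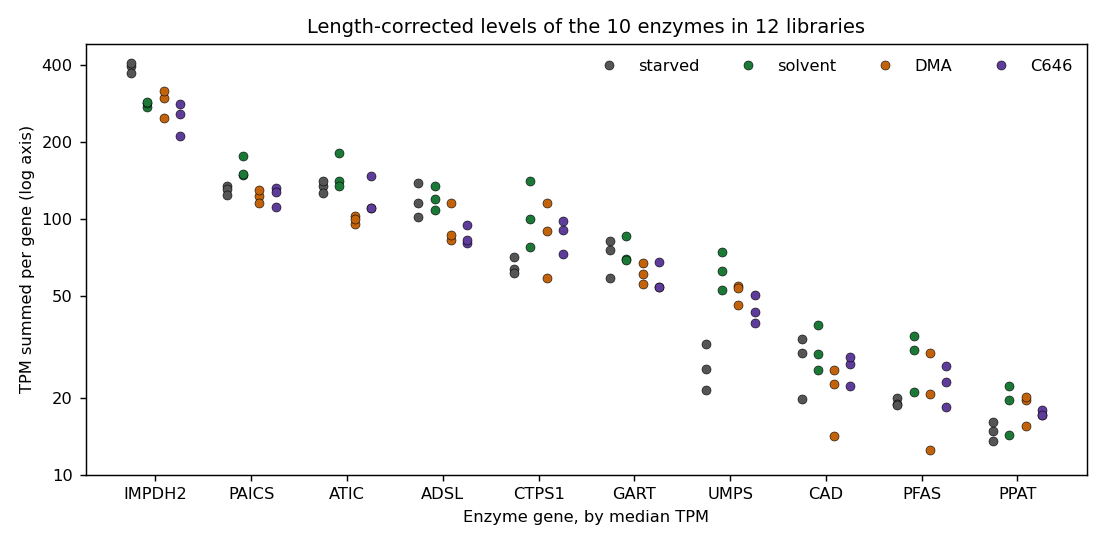
TPM summed per gene (length-corrected, log axis) of each enzyme in the 12 libraries, coloured by group, ordered by the median. IMPDH2 is the highest in every library, and the ranges of neighbouring enzymes after it overlap.

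Levels between genes were compared per length, as TPM summed over the transcripts of a gene. IMPDH2, which commits IMP to guanine nucleotides, was the most abundant of the enzymes with a median of 285 TPM (range 211 to 406 over the 12 libraries). PAICS (median 130.3 TPM) and ATIC (130.3 TPM) followed. ADSL had 105 TPM, CTPS1 83.7 TPM and GART 67.8 TPM. UMPS had 48.3 TPM, CAD 26.4 TPM, PFAS 20.9 TPM and PPAT, which catalyses the committed step of the purine pathway, 17.1 TPM. Only IMPDH2 lay outside the range of its neighbour in this order. The rank of UMPS depends on short transcripts: its full-length coding transcript UMPS-201 held a median of 4.92% of its TPM and 25.8% of its counts, while the non-coding UMPS-208 held 42.5% of its TPM.

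**Figure D2:**
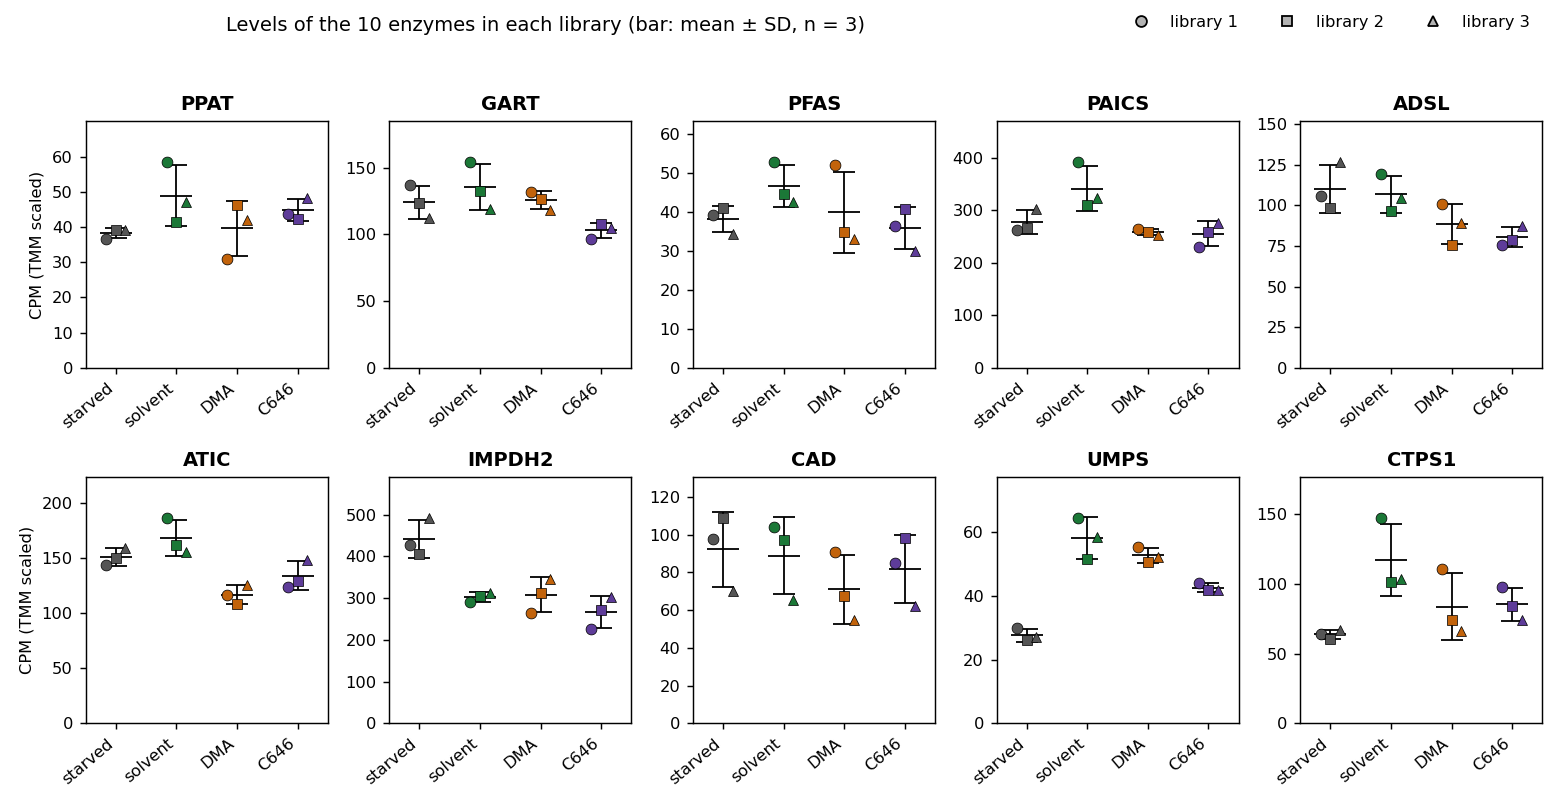
CPM of each enzyme in each library (points, with the library number as the symbol), with mean and SD of the 3 libraries of a group. UMPS and CTPS1 lie higher in all solvent libraries than in the starved ones, IMPDH2 lies lower, and CAD is lowest in library 3 of every group.

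Returning serum and glucose for 4 h was compared with starvation to ask how these genes respond to refeeding. Both UMPS and CTPS1, the last enzymes of UMP and CTP synthesis, rose, while IMPDH2 fell. None of the enzymes from PPAT to ATIC, which make IMP, passed the threshold in the fit without the replicate number as a block. Thus 2 of 10 enzymes were higher and 1 was lower, where 12.6% of all genes tested were higher and 11.7% lower. The median log2 fold change was 0.22 over the enzymes and 0.00 over all genes. All calls are from edgeR's quasi-likelihood test with Benjamini-Hochberg adjustment over the 15263 genes and a threshold of 0.05. Lack of overlap between solvent and starved libraries is given below as a description only, without its share over all genes.

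UMPS (chr3:124730366-124749273, plus strand) makes orotidine monophosphate and converts it to UMP. Its level was 29.9, 26.0 and 27.0 CPM in starved libraries 1 to 3. In solvent libraries it was 64.4, 51.5 and 58.4 CPM. The lowest solvent library was well above the highest starved one. The groups measured 27.7 ± 2.00 and 58.1 ± 6.46 CPM (SD, n = 3), a 2.10-fold rise with a log2 fold change of 1.07 ± 0.12 (SE) and an adjusted p of 5.7e-05 in edgeR. The rise ranged from 0.99 to 1.15 on the log2 scale when each library was left out in turn, with 0.99 without solvent library 1. The full-length transcript UMPS-201 alone went from 4.53 to 8.20 CPM in starved libraries to 12 to 14.3 CPM in solvent ones. UMPS-204, annotated for nonsense-mediated decay, measured 1.215 to 6.746 CPM in starved and 7.058 to 25.01 CPM in solvent libraries. In solvent library 1 it held 38.8% of the UMPS counts, against 18.7% for UMPS-201. These transcript values are estimates and were not tested.

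CTPS1 (chr1:40979335-41012565, plus strand) turns UTP into CTP. It measured 63.9, 60.7 and 67.2 CPM in starved libraries and 147, 101 and 103 CPM in solvent libraries. Again the groups did not overlap, and solvent library 1 stood highest. The rise was 1.84-fold, with a log2 fold change of 0.88 ± 0.19 (SE) and an adjusted p of 0.0057 in edgeR. Without solvent library 1 it was 0.68, with an adjusted p of 0.0275. Most of the counts were in the coding transcript CTPS1-202, at 34.1 to 37.0 CPM in starved and 71.7 to 102 CPM in solvent libraries.

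IMPDH2 (chr3:49024325-49029408, minus strand) carries out the rate-limiting step of GTP synthesis. Its level was 426, 406 and 492 CPM in starved libraries, and 290, 304 and 312 CPM in solvent libraries. All solvent libraries lay below all starved ones. The log2 fold change was -0.55 ± 0.13 (SE), with an adjusted p of 0.0095 in edgeR, and it ranged from -0.60 to -0.46 when single libraries were left out. A single transcript, IMPDH2-201, held 90.8% to 96.2% of the counts. The fall depends on the scaling, which under TMM is relative to other genes. Scaled to the spike-in controls, IMPDH2 had a log2 fold change of 0.05 (adjusted p 0.926 in edgeR). The median gene was then 0.60 higher on the log2 scale in solvent than in starved cells. Under spike-in scaling 3227 genes were higher and 189 lower, against 1921 and 1783 under TMM. The spike-ins held 0.872% to 1.28% of counts in starved and 0.527% to 1.06% in solvent libraries. That spread within each group makes the spike-in scaling imprecise, and how reliable the spike-ins are was not tested.

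The enzymes that lead to IMP did not pass in the fit without the block. PPAT, which starts the pathway, measured 36.5, 39.1 and 39.2 CPM in starved and 58.3, 41.3 and 47.0 CPM in solvent libraries. These groups did not overlap, and the log2 fold change of 0.35 ± 0.16 (SE) had an adjusted p of 0.126 in edgeR. Its neighbour PAICS, a fused enzyme of the middle of the pathway, measured 262, 267 and 303 CPM in starved and 391, 310.3 and 323 CPM in solvent libraries. Here too the groups did not overlap, with a log2 fold change of 0.30 ± 0.12 (SE) and an adjusted p of 0.073. Without solvent library 1 the values were 0.21 for PPAT and 0.19 for PAICS. With the replicate number as a block, PAICS was called higher (0.30, adjusted p 0.0422 in edgeR). Then 3 of 10 enzymes were higher and 1 was lower, where 2754 and 2697 of the 15263 genes were.

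GART (chr21:33503931-33543491, minus strand), a protein with 3 activities of the pathway, had 137, 124 and 112 CPM in starved and 154, 133 and 119 CPM in solvent libraries. In PFAS (chr17:8247618-8270491, plus strand), which transfers an amide nitrogen to the growing ring, the values were 39.1, 40.9 and 34.4 CPM in starved and 52.6, 44.4 and 42.5 CPM in solvent libraries. The GART groups overlapped, and the PFAS groups did not. ATIC (chr2:215311817-215349773, plus strand), which closes the purine ring, had 144, 151 and 160 CPM in starved and 187, 162 and 156 CPM in solvent libraries. Log2 fold changes were 0.12 for GART (95% interval -0.12 to 0.37), 0.29 for PFAS (-0.10 to 0.67) and 0.15 for ATIC (-0.09 to 0.39). Each interval includes 0. They were 0.023 for GART, 0.19 for PFAS and 0.07 for ATIC without solvent library 1.

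ADSL (chr22:40346500-40390463, plus strand), the lyase that acts in both IMP and AMP synthesis, had 106, 98.3 and 126 CPM in starved and 119, 96.7 and 104 CPM in solvent libraries. Its counts are uncertain, since 21.8% of its 31-base sequences also occur in other genes, mainly AL022238.4, which overlaps it on the same strand. PAICS and PPAT share 14.5% and 11.9% of theirs, mainly with PAICSP4 and PPATP1. CAD (chr2:27217390-27243943, plus strand), whose 3 activities begin pyrimidine synthesis, had 97.7, 109 and 70.0 CPM in starved and 104, 96.9 and 65.5 CPM in solvent libraries. Both genes overlapped between the groups. The log2 fold changes were -0.04 for ADSL (95% interval -0.33 to 0.24) and -0.05 for CAD (-0.56 to 0.45), and -0.13 and -0.18 without solvent library 1. The median of the 10 enzymes was then 0.13.

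In CAD, library 3 was the lowest in each group, with 70.0, 65.5, 54.9 and 62.2 CPM in starved, solvent, DMA and C646 cells. The widest interval among the 10 enzymes was that of CAD.

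**Figure D3:**
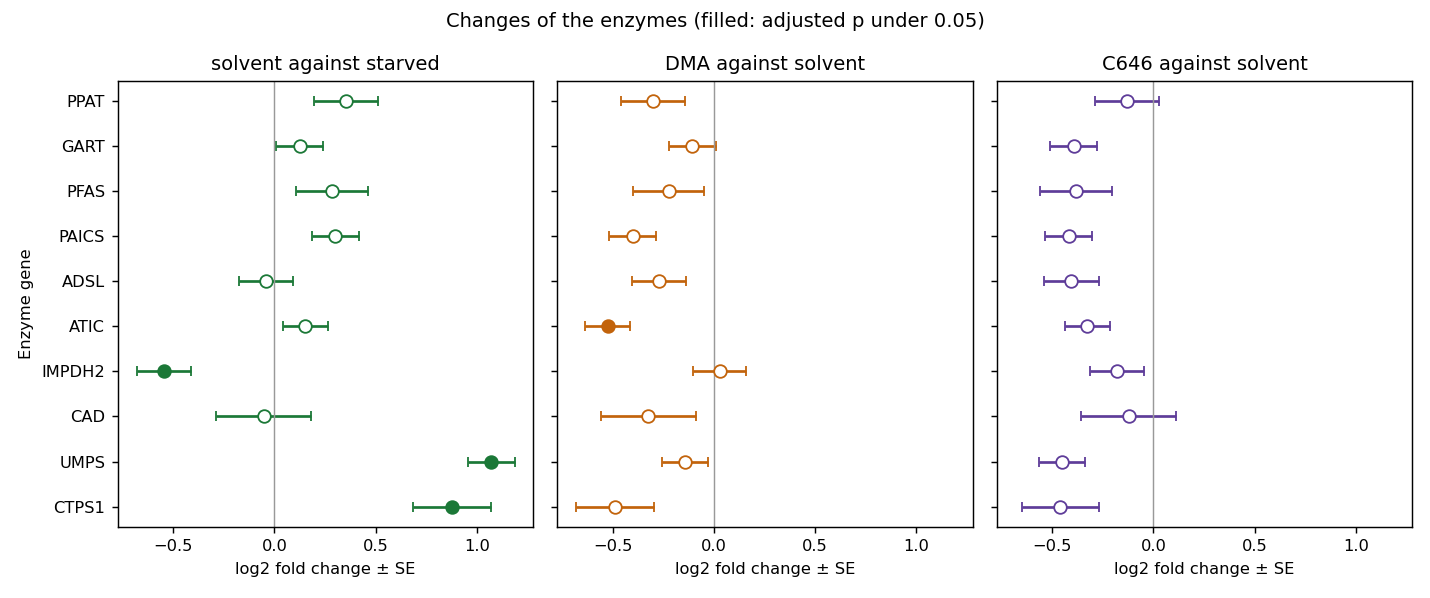
Log2 fold change ± SE of each enzyme from edgeR in 3 comparisons, with filled points where the adjusted p is under 0.05. UMPS and CTPS1 lie right of 0 and IMPDH2 left of it in solvent against starved, ATIC is the 1 filled point in DMA against solvent, and all 10 points lie left of 0 in C646 against solvent.

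Refeeding in the presence of dimethyl amiloride was compared with solvent to see how these genes respond to refeeding while Na+/H+ exchange is inhibited. ATIC was lower with DMA, the 1 of 10 enzymes called, where 1.02% of all genes were lower. The fitted value was below 0 in 9 of 10 enzymes, with IMPDH2 as the exception, and the median log2 fold change was -0.29, against 0.01 over all genes. All 10 values were below 0 without solvent library 1, with a median of -0.17, and 0 enzymes were called. The groups did not overlap, with DMA lower, in 2 of 10 (ATIC and PAICS), as in 11.9% of all genes.

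ATIC measured 117, 108 and 126 CPM with DMA, below the 156 to 187 CPM of the solvent libraries. Every DMA library was also below every starved one. The log2 fold change was -0.52 ± 0.11 (SE), with an adjusted p of 0.035 in edgeR. The call was lost in a fit of only these 2 groups (-0.52, adjusted p 0.0882) and with spike-in scaling (-0.28, adjusted p 0.906). With 1 library left out the value ranged from -0.59 to -0.44. The call was kept only without solvent library 3 (adjusted p 0.0436), and in the other cases the adjusted p was 0.0531 to 0.154. The largest of these values belong to the fits without solvent library 1 (-0.44, adjusted p 0.153) and without DMA library 2 (-0.47, adjusted p 0.154). In solvent library 1, 56.5% of the ATIC counts were assigned to ATIC-207, a transcript annotated for nonsense-mediated decay, which held at most 15.1% elsewhere. The coding transcript ATIC-201 measured 42.2 CPM there and 118 and 120 CPM in solvent libraries 2 and 3, against 78.6 to 91.8 CPM with DMA.

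PAICS measured 264, 258 and 253 CPM with DMA, all below the solvent libraries, with a log2 fold change of -0.40 ± 0.12 (SE) and an adjusted p of 0.0855. CTPS1 measured 111, 74.0 and 66.3 CPM, and the groups overlapped at -0.49 ± 0.19 (SE), adjusted p 0.183. The CTPS1 value was -0.29 (adjusted p 0.571) without solvent library 1 and -0.75 (adjusted p 0.0467) without DMA library 1. That of PAICS was -0.29 (adjusted p 0.313) without solvent library 1. Between libraries of the same number, GART, PFAS, PAICS, ADSL, ATIC, CAD, UMPS and CTPS1 were lower with DMA in each of the 3 pairs. PPAT and IMPDH2 were not, and the share of all genes is not given here. With the replicate number as a block, 3 enzymes were lower, where 5.46% of all genes were: ATIC (adjusted p 0.0084), CTPS1 (0.0277) and PAICS (0.0324). With the block and without solvent library 1, ATIC alone was called, at -0.42 with an adjusted p of 0.046.

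The other enzymes did not pass. UMPS measured 55.3, 50.7 and 52.1 CPM with DMA, with a log2 fold change of -0.14 (95% interval -0.39 to 0.10). GART had 132, 127 and 119 CPM (-0.11, interval -0.36 to 0.14), and ADSL 101, 75.8 and 89.1 CPM (-0.27, interval -0.56 to 0.02). The values of these 3 genes overlapped with solvent. In UMPS the full-length transcript UMPS-201 alone measured 14.55, 15.87 and 23.24 CPM with DMA. That was above the 12.03 to 14.27 CPM of the solvent libraries, unlike the gene as a whole. PFAS had 51.8, 34.7 and 32.9 CPM (-0.22, interval -0.61 to 0.16), and CAD 90.7, 67.5 and 54.9 CPM (-0.32, interval -0.83 to 0.18). PPAT had 30.9, 46.2 and 41.8 CPM (-0.30, interval -0.64 to 0.04). PPAT and IMPDH2 were lowest in DMA library 1, which was the highest DMA library in GART, PFAS, PAICS, ADSL, CAD, UMPS and CTPS1. IMPDH2 had 265, 313 and 346 CPM, which overlapped the solvent libraries, and a log2 fold change of 0.03 (interval -0.26 to 0.31). The values of UMPS, ADSL, PFAS, CAD and PPAT were -0.06, -0.18, -0.13, -0.19 and -0.15 without solvent library 1. Those of GART and IMPDH2 were then -0.0048 and -0.00073.

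C646 during refeeding was compared with solvent to see how the genes respond when p300 and CBP are inhibited. By edgeR's test 0 of 10 enzymes passed the adjusted threshold, where 0.4% of all genes were lower. At an unadjusted p under 0.05 there were 7, all lower, where 8.26% of all genes were. DESeq2 called 3 lower (GART, PAICS and UMPS), where it called 3.05% of the genes with an adjusted p. The fitted value was below 0 in 10 of 10 enzymes, and the median log2 fold change was -0.39, against 0.01 over all genes. With solvent library 1 left out, 8 of 10 were below 0 and the median was -0.27. The groups did not overlap, with C646 lower, in 7 of 10: GART, PFAS, PAICS, ADSL, ATIC, UMPS and CTPS1. This held for 11.6% of all genes.

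UMPS measured 44.1, 41.7 and 41.7 CPM with C646, against 51.5 to 64.4 CPM with solvent. The C646 libraries were close to each other, and all lay between the starved and the solvent libraries. The log2 fold change against solvent was -0.45 ± 0.11 (SE), with an adjusted p of 0.0716 in edgeR. The full-length transcript UMPS-201 alone measured 9.075, 13.25 and 11.64 CPM with C646, which overlapped the 12.03 to 14.27 CPM with solvent. GART measured 96.8, 108 and 105 CPM, below all libraries of every other group, at -0.39 ± 0.12 (SE) and an adjusted p of 0.106. PAICS measured 230.3, 259 and 277 CPM, at -0.42 ± 0.12 (SE) and an adjusted p of 0.0881.

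ADSL had 75.6, 78.8 and 87.4 CPM with C646 (-0.41, 95% interval -0.69 to -0.12). CTPS1 had 97.5, 84.2 and 74.3 CPM (-0.46, interval -0.87 to -0.05), and ATIC 124, 130 and 149 CPM (-0.33, interval -0.57 to -0.09). PFAS had 36.3, 40.8 and 30 CPM (-0.38). These 4 lay below the solvent libraries without overlap and did not pass the adjusted test. In the remaining enzymes the groups overlapped. PPAT had 43.7, 42.2 and 48.2 CPM (-0.13, interval -0.47 to 0.21), CAD 84.7, 98 and 62.2 CPM (-0.12, interval -0.63 to 0.38), and IMPDH2 226, 271 and 303 CPM (-0.18, interval -0.46 to 0.11).

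The C646 values were smaller in size in 9 of 10 enzymes, all but IMPDH2, when solvent library 1 was left out of the fit without the block. They were -0.37 for UMPS, -0.29 for GART, -0.31 for PAICS, -0.32 for ADSL and -0.26 for CTPS1. ATIC, PFAS and IMPDH2 gave -0.25, -0.29 and -0.21, and PPAT and CAD gave 0.016 and 0.0068. By edgeR 0 of these passed the adjusted threshold.

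With the replicate number as a block, 5 of 10 enzymes were lower with C646, where 3.73% of all genes were: UMPS (adjusted p 0.0141), GART (0.0317), PAICS (0.033), ADSL (0.0399) and CTPS1 (0.0476). Under the block but without solvent library 1, 0 were called by edgeR, and the 5 values were -0.41 for UMPS, -0.31 for GART, -0.28 for PAICS, -0.33 for ADSL and -0.38 for CTPS1. S phase genes moved with these values: each of the 12 tested had a fitted value below 0 with either inhibitor, with a median of -1.0 for DMA and -0.99 for C646. Without solvent library 1 the medians were -0.50 and -0.47, with 11 and 12 of 12 values below 0 and MCM7 above it with DMA (0.17). CCNE2, which drives S phase entry, measured 20.8 ± 18.3 CPM with solvent, 2.96 ± 0.46 CPM with DMA and 3.77 ± 0.74 CPM with C646 (SD, n = 3), and was called lower in both comparisons. Its values were -1.80 with DMA and -1.45 with C646 without solvent library 1, and neither was called. Both calls also ended without any 1 of the inhibitor's own libraries. The part of S phase entry in the enzyme values was not tested.

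The inhibitor groups were also set against starvation, a comparison that shares the starved libraries with solvent against starved. In DMA cells 1 of 10 enzymes was higher (13.9% of all genes) and 2 were lower (13% of all genes). UMPS was higher at 0.93 ± 0.12 (SE, adjusted p 0.000124), while ATIC (-0.37 ± 0.11, adjusted p 0.0245) and IMPDH2 (-0.52 ± 0.13, adjusted p 0.0113) were lower. With the block, CTPS1 (0.35, adjusted p 0.0442) was also higher, so that 2 were higher where 19.2% of all genes were. ADSL (-0.32, adjusted p 0.0345) and CAD (-0.38, adjusted p 0.0187) were also lower under the block, giving 4 where 19.5% of all genes were lower. The ATIC call ended without starved library 2, starved library 3 or DMA library 2 (adjusted p 0.0583, 0.0798 and 0.0947).

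In C646 cells against starved, 1 of 10 enzymes was higher (12.9% of all genes) and 2 were lower (11.7% of all genes). UMPS was higher at 0.62 ± 0.12 (SE, adjusted p 0.0019), and IMPDH2 (-0.72 ± 0.13, adjusted p 0.0018) and ADSL (-0.45 ± 0.13, adjusted p 0.0266) were lower. The block added CTPS1 as higher (0.40, adjusted p 0.0259), giving 2 where 18.4% of all genes were higher. The ADSL call ended without starved library 1 or 3 or C646 library 1 or 2, with adjusted p-values of 0.0507 to 0.101. UMPS and IMPDH2 kept their calls in both comparisons with each library left out in turn. Scaled to the spike-in controls, IMPDH2 had values of 0.31 with DMA and 0.01 with C646, so its lower level again depends on the scaling. The median of all genes was higher by 0.81 and 0.73 under spike-in scaling. The values of ATIC with DMA and ADSL with C646 were 0.43 and 0.27 under it, with neither called.

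Between DMA and C646, 0 of 10 enzymes passed in edgeR, where 2.89% of all genes did, and 2 had an unadjusted p under 0.05, where 17.4% of all genes did. DESeq2, which called 7.34% of genes with an adjusted p, and the block also called 0. Both exceptions were lower with C646: UMPS differed by 0.31 (95% interval 0.06 to 0.55, adjusted p 0.174) and GART by 0.29 (interval 0.04 to 0.54, adjusted p 0.22).

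GART is known to yield a short messenger RNA, ended within an intron, that encodes its first activity alone. The transcript GART-201, which ends early, held 9.08 ± 0.72% of the GART counts in starved, 12.4 ± 2.14% in solvent, 9.54 ± 1.68% in DMA and 10.8 ± 1.22% in C646 cells (SD, n = 3). All transcripts that end over 1000 bases before the end of the gene together held 15.9 ± 0.56%, 16.4 ± 2.28%, 12.2 ± 0.69% and 15.6 ± 1.96% in the same order. By that sum the solvent and starved means differed by less than the SD of the solvent libraries, and the DMA mean was the lowest. The level of GART-201 was 10.2 to 12.9 CPM in starved and 13.3 to 20.7 CPM in solvent libraries, so these did not overlap. The full transcript GART-203 was at 92.4 to 114 CPM in starved and 96.7 to 127 CPM in solvent libraries. No test was made on transcripts, whose shares are estimates from overlapping reads.

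Across the 12 libraries the log2 CPM of PAICS and ATIC had a Pearson r of 0.83 and that of UMPS and CTPS1 an r of 0.77. IMPDH2 ran the other way, with r of -0.71 with UMPS and -0.67 with CTPS1. PAICS was the enzyme most like the mean of the others (r of 0.90), and IMPDH2 the least like it (-0.12). Of 9743 other genes, RPA2 (r of 0.96), HELLS (0.94), ABCB10 (0.94), GNPAT (0.93) and RFC5 (0.93) were most like the mean profile of the enzymes. These values describe 12 libraries that share their groups and solvent library 1.

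**Figure D4:**
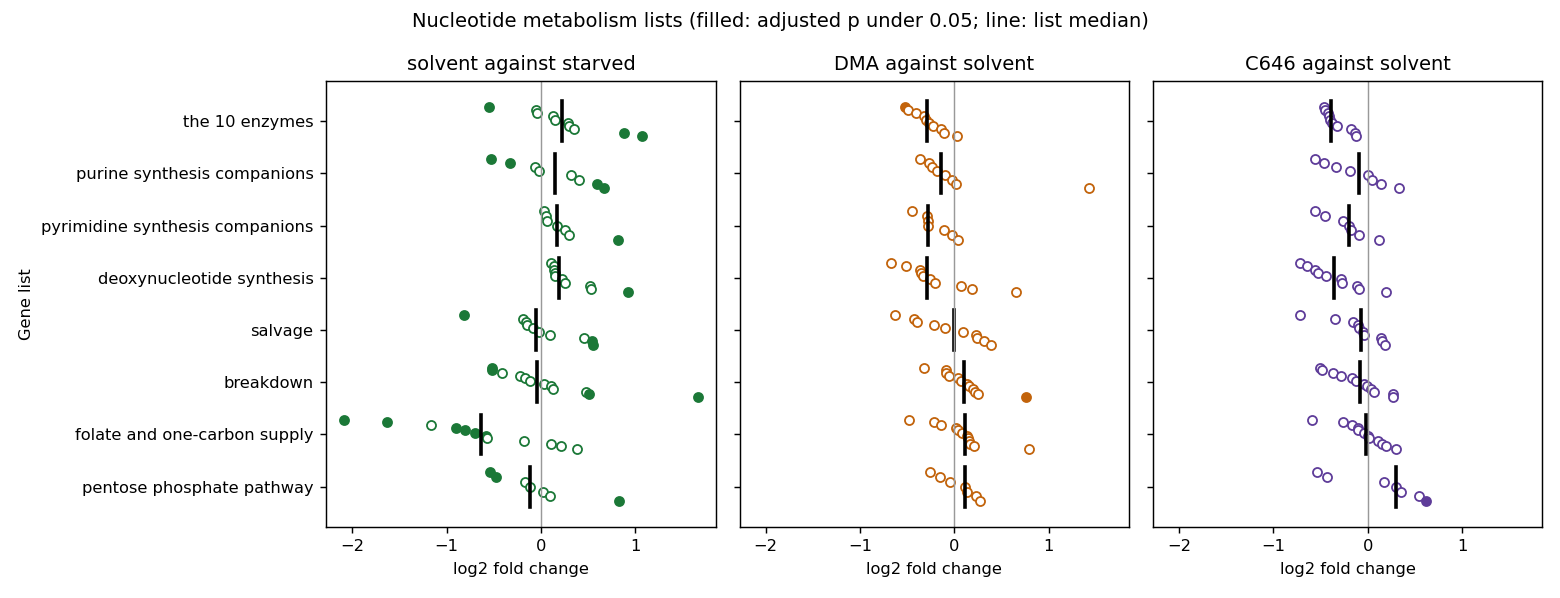
Log2 fold change from edgeR of each tested gene in the enzymes and in 7 lists of neighbouring pathways (filled points: adjusted p under 0.05, black line: median of the list). In solvent against starved 9 of 12 one-carbon genes lie left of 0 and 3 right of it. All genes of the pyrimidine and deoxynucleotide lists lie right of it.

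The genes around these enzymes were read from lists, with the threshold and test as above. For the list counts in solvent against starved cells, the shares over all genes are 12.6% higher and 11.7% lower. Of all 15263 genes, 7668 had a fitted value above 0 in that comparison. The 8 companions of purine synthesis had 2 higher and 2 lower. IMPDH1, the second IMP dehydrogenase, rose from 23.9 ± 6.0 to 38 ± 3.6 CPM (log2 fold change 0.66, adjusted p 0.0272), whereas IMPDH2 fell. PRPS1, which makes the activated ribose phosphate, rose by 0.59 (adjusted p 0.0159). ADSS, which turns IMP toward AMP, fell by 0.52 (adjusted p 0.0106), and PRPSAP1, an associated protein of PRPP synthetase, fell by 0.33 (adjusted p 0.0467). The PRPSAP1 call ended without any 1 of the 6 libraries. Without solvent library 1 the calls of IMPDH1 and PRPS1 also ended, and without solvent library 2 that of ADSS. IMPDH1 also lost its call without solvent library 3 and without either of starved libraries 2 and 3, and PRPS1 without starved library 1 or 2.

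Of 7 pyrimidine companions tested, 1 was higher and 0 were lower in solvent against starved, and all 7 fitted values were above 0. NME1, a nucleoside diphosphate kinase, rose from 87.0 ± 0.63 to 153 ± 11.2 CPM (0.81, adjusted p 6e-04), and the call held without any single library. Of 10 genes of deoxynucleotide synthesis, DCTPP1, which breaks down dCTP, was the 1 that rose (0.93, adjusted p 0.0012). In salvage, 2 of 10 were higher (HPRT1 at 0.55, adjusted p 0.0126, and UCK2 at 0.54, adjusted p 0.0199) and 1 was lower (UCKL1 at -0.81, adjusted p 0.0224). HPRT1 recovers hypoxanthine and guanine, and UCK2 and UCKL1 phosphorylate uridine and cytidine. These 3 salvage calls each ended without solvent library 1, starved library 1 or starved library 2, and UCKL1 also without solvent library 3.

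Enzymes of breakdown had 2 higher and 2 lower of 12. XDH, which makes uric acid, was higher at 6.56 ± 1.16 against 2.06 ± 0.35 CPM (1.66, adjusted p 0.0022). PNP rose by 0.51 (adjusted p 0.0261), while UPP1 and ADA fell by 0.52 each (adjusted p 0.0288 and 0.0352). The XDH call held without any single library, and those of PNP, UPP1 and ADA each ended without solvent library 1 and without starved library 2, among others.

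The one-carbon pathway, which gives purine synthesis its formyl groups, had 6 of 12 genes lower and 0 higher in solvent against starved, with a median of -0.64. Fitted values were above 0 in 3 of the 12. With the replicate block 1 gene of this list was higher and 6 were lower. MTHFD2, a mitochondrial folate enzyme, fell from 456 ± 42.2 to 107 ± 10.8 CPM (-2.09, adjusted p 4.2e-05). ATF4, a stress factor that activates one-carbon genes, fell by 1.88 (adjusted p 8.8e-05). MYC measured 152 ± 49.1 CPM in starved and 96.1 ± 13.4 CPM in solvent cells (-0.66, adjusted p 0.0825). In the pentose phosphate pathway, source of the ribose, 1 of 7 was higher (RPIA at 0.83, adjusted p 0.0024) and 2 were lower (TKT at -0.54, adjusted p 0.0459, and PGLS at -0.48, adjusted p 0.0386). TKT and PGLS lost their calls without solvent library 1, starved library 1 or starved library 2, TKT also without solvent library 3 and PGLS without solvent library 2. With spike-in scaling 0 genes were lower in the purine companions, salvage, breakdown and the pentose phosphate pathway. In one-carbon supply 2 were lower, so these falls too depend on the scaling. Of 12 S phase genes, 4 were higher and 0 lower in solvent against starved. CCNE2 was higher by 2.32 (adjusted p 0.0061) and MCM10 by 1.57 (adjusted p 0.0201), and MCM10 was not called without solvent library 1, starved library 1 or starved library 3. Without solvent library 1 CCNE2 was higher by 1.30 (adjusted p 0.0166), MCM10 had a value of 0.68 (adjusted p 0.0951), and the median of the 12 moved from 0.47 to -0.01.

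Between the inhibitors and solvent 2 genes of these 7 lists were called, both higher. Of all 15263 genes, 112 were higher with DMA and 124 with C646. With DMA, 1 of 12 breakdown genes was called, UPP1, higher by 0.76 (adjusted p 0.0329). With C646, 1 of 7 pentose phosphate genes was called, PGD, which rose from 362 ± 29.9 to 555 ± 63.0 CPM (0.62, adjusted p 0.0265). UPP1 kept its call only without solvent library 3, and PGD lost its call without solvent library 1 or 2 or C646 library 1 or 3. The lists of purine and pyrimidine companions, deoxynucleotide synthesis, salvage and one-carbon supply had 0 calls in edgeR in both comparisons. At an unadjusted p under 0.05, the deoxynucleotide list had 4 of 10 genes with DMA and 3 with C646, and the purine companions had 2 and 3 of 8, where 19.4% of all genes did with DMA and 16.8% with C646. With the replicate block and DMA, 1 gene was higher in each of the purine companions, deoxynucleotide synthesis and breakdown. Salvage had 1 higher and 1 lower, and one-carbon supply had 1 lower. Of all 15263 genes, 726 were higher and 834 lower. With the block and C646, 2 purine companions, 2 deoxynucleotide genes, 1 salvage gene, 1 one-carbon gene and 1 pyrimidine companion were lower. The pentose phosphate pathway had 2 higher and 2 lower. Of all genes, 629 were higher and 570 lower with C646.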

How the data were processed

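Poly-A RNA of 12 RPE-1 libraries was sequenced with a stranded kit, per the labels. The submitters' processing notes name Trimmomatic 0.36, STAR 2.7.0e and build GRCh38.p10. Not given in the sources used here are the quantifier, its annotation and its strand setting. The authors deposited expected counts (estimated reads) and TPM per transcript, with lengths and effective lengths, other values that were not used. The analysis planned for raw counts was run on expected counts summed per gene with GENCODE 29 and rounded. Of 182164 transcripts, 92 spike-ins (0.527% to 1.28% of counts) and 264 unmatched ones (0.0923% to 0.146%) were left out. Depth was 14910516 to 28968510 counts.

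Genes passing filterByExpr (minimum count 10, total 15; 15263 genes) were tested with edgeR 4.0.16 (TMM, robust quasi-likelihood F-test, 12 libraries in 1 fit, Benjamini-Hochberg over all genes). DESeq2 1.42.0, other scalings and filters, smaller fits, the replicate block, a fold threshold and single libraries left out were alternatives. The script was tested on simulated data.

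The members and lists were chosen with earlier results of these data known. Named genes are the members, up to 2 genes per list, direction and comparison with the largest change, MYC, ATF4, and 5 genes most like the members; CCNE2 is one of the S phase list. One gene that this rule names is not reported here. Same-numbered libraries deviated together in all comparisons, with correlations of 0.0957 to 0.33 in solvent against starved and 0.128 to 0.483 in the others. In solvent against starved the correlations between different numbers were at most 0.0631. Deviations were taken from the mean of the 3 libraries of a group, so positive same-number values push the others down. The low values between different numbers are therefore no separate support. The main fit has no block, and results with the block are given beside it.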

Additional observations from a re-analysis of the deposited data

How the results depend on the processing

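Counts of enzymes called changed with the replicate block, the tool, the scaling and the samples in the fit. For DMA against solvent the count was 1, and it was 2 with DESeq2, 3 with the replicate block, 0 with only the compared groups, 0 with spike-in scaling and 0 to 1 with single libraries left out. Over all genes DESeq2 called 542 higher and 554 lower with DMA. For C646 against solvent it was 0 enzymes, and 3 with DESeq2 and 5 with the replicate block. For DMA against starved it was 3, and 5 with spike-in scaling, all higher, where 6439 of the 15263 genes were higher and 135 lower. With the replicate block it was 6, where 2935 genes were higher and 2979 lower. For solvent against starved the replicate block added PAICS (0.30, adjusted p 0.0422 in edgeR). The block changed no other call of an enzyme beyond those given in the report.

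With spike-in scaling the median gene was higher by 0.60 (solvent against starved), 0.23 and 0.13 (DMA and C646 against solvent), and 0.81 and 0.73 (DMA and C646 against starved). Under it several log2 fold changes turned positive. In solvent against starved these were ADSL (0.50), IMPDH2 (0.048) and CAD (0.53). In DMA against solvent they were PPAT (0.0083), GART (0.13) and UMPS (0.11), and in C646 against solvent PPAT (0.054) and CAD (0.022). Against starved, ADSL, ATIC, IMPDH2 and CAD gave 0.47, 0.43, 0.31 and 0.40 with DMA and 0.27, 0.54, 0.0085 and 0.55 with C646. Leaving out single libraries turned the sign of 5 uncalled values, whose ranges were -0.13 to 0.068 (ADSL, solvent against starved), -0.21 to 0.13 (CAD, solvent against starved), -0.074 to 0.12 (IMPDH2, DMA against solvent), and -0.24 to 0.016 (PPAT) and -0.30 to 0.039 (CAD) in C646 against solvent. With the replicate block and without solvent library 1, an alternative chosen after seeing the data, PPAT gave 0.089 in C646 against solvent. Of the remaining single-gene values over all alternatives, 538 kept direction and call, 22 gained a call and 16 lost one. The causes were not tested beyond what these settings change. Precision is limited by having 3 libraries a group, and depth was at least 14910516 counts.

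In the pathway lists, the purine companions called in solvent against starved numbered 4, and 1 to 2 with a library left out, salvage 3 and 0 to 3, breakdown 4 and 1 to 4, one-carbon supply 6 and 5 to 7, and the pentose phosphate pathway 3 and 1 to 3. The share of all GART transcripts that end early is larger by TPM than by counts, at 41.3% against 15.9% in starved cells.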
